A study of Mus musculus with 7 samples.

Results

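This report follows 36 genes of the cell division machinery, a set given by name, through islet RNA of 2 mouse strains related to the non-obese diabetic (NOD) mouse, from a study of resistance to the beta cell toxin alloxan. All 36 were found among the 25793 gene symbols of the array table, each was read from its brightest probe set, and none was lost to a filter on low values because none was set. By role, 25 act in mitosis, 9 in DNA replication and nucleotide supply, and 2 are transcription factors of the cell cycle. The first, labelled NOD_Idd22, is NOD carrying a segment of chromosome 8 of the alloxan-resistant strain ALR between 2 microsatellite markers, with an intact Rag1 gene and so with lymphocytes of its own. The other, labelled NOD-Rag1, is NOD with Rag1 knocked out, which leaves the animals without mature T and B cells, and it stood in for NOD because it develops no insulitis. Both share the NOD background. No NOD mouse with an intact Rag1 gene and without the ALR segment is in the comparison, so the segment cannot be told apart from the Rag1 genotype. By its full name in the paper, the knockout strain took its Rag1 mutation from other strains. Donor DNA that may remain near Rag1 cannot be told apart from the Rag1 genotype either. There were 4 NOD_Idd22 pools and 3 NOD-Rag1 pools of hand-picked islets, each of about 200 islets from 2 mice aged 10 to 12 weeks, and no treatment was given. Values are log2 expression values from a Mouse Gene array, where a difference of 1 is a doubling, and log2 fold changes are NOD_Idd22 minus NOD-Rag1.

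A dividing cell first copies its DNA and then sorts the copies into its daughters. In late G1, E2F factors switch on the genes that license origins, unwind DNA and make nucleotides. From G2 onward, NF-Y, the MuvB complex and FOXM1 drive the genes of cyclin B, the spindle and the kinetochore. Adult islet endocrine cells divide rarely, and activated lymphocytes are among the fast-dividing cells of the body, so these transcripts are often read beside lymphocyte markers when islets hold immune cells. A bulk sample cannot tell a larger share of dividing cells apart from more of the transcript in each.

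The pools correlated at 0.976 to 0.986 within NOD_Idd22, 0.984 to 0.993 within NOD-Rag1 and 0.965 to 0.981 between the strains. These correlations run over probe sets, and probe sets are no replicates. Igkc, the immunoglobulin kappa constant region, averaged 11.60 ± 0.59 in NOD_Idd22 and 3.78 ± 0.29 in NOD-Rag1 (SD, n = 4 and 3 pools), so its level followed the labels. The Rag1 probe set averaged 3.59 ± 0.26 in NOD_Idd22 and 3.95 ± 0.30 in NOD-Rag1 and did not mark the knockout, and whether it lies in the deleted part was not tested. Islet genes were bright, and 16 beta cell genes had a median percentile of 99.1 among all probe sets. By the lower quartile of all values, arrays formed 2 sets, which the labels do not name. NOD_Idd22 replicates 2, 3 and 4 and NOD-Rag1 replicate 1 had lower quartiles of 2.64 to 2.68, against 2.49 to 2.50 in NOD_Idd22 replicate 1 and NOD-Rag1 replicates 2 and 3. NOD-Rag1 replicate 1 alone had the sex-linked values of a male pool (Xist 2.56, Ddx3y 6.25).

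Over all pools most cell division genes lay somewhat above the NOD-Rag1 level in NOD_Idd22 islets, by an amount that changed with single pools, and no single gene passed the test across the array. Of the 25 mitosis genes, all had a positive log2 fold change, with a median of 0.38, though Aurkb turned to -0.036 after quantile normalization and -0.0080 after median centring. The 9 replication genes had a median of 0.08, 7 of them positive, and a median of -0.035 after median centring. Over all 36 the median was 0.33, with 34 positive and 2 negative (28 positive after median centring). Among probe sets, 18896 were positive, and the median was 0.02 over all 34351 tested. By limma with Benjamini-Hochberg adjustment over all of those, 0 of the 36 genes had an adjusted p under 0.05, the lowest being 0.414, against a background of 0.157% of probe sets in either direction and 0.146% higher in NOD_Idd22. At an unadjusted p under 0.05 by limma, 5 of 36 (13.9%) passed, against 9.48% of all probe sets. The same 5, Mki67, Top2a, Cdk1, Plk1 and Bub1, also had an absolute log2 fold change over 0.5, which together form the threshold in the study's methods. All 5 were higher in NOD_Idd22, against a background of 3.81% of probe sets higher and 1.78% lower. By the unpaired test named in the study's figure legends, called the methods' t-test here, 1 of 36 (2.78%) was past this threshold, Top2a, against 2.74% of probe sets higher and 3.64% in either direction. The pools of the strains did not overlap for 3 genes, Mki67, Bub1 and Cenpa (8.33% of 36), against 4.43% of all probe sets with every NOD_Idd22 pool above every NOD-Rag1 pool. The smallest p that an exact two-sided permutation of 4 against 3 pools can give is 0.0286, from 35 assignments.

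**Figure D1:**
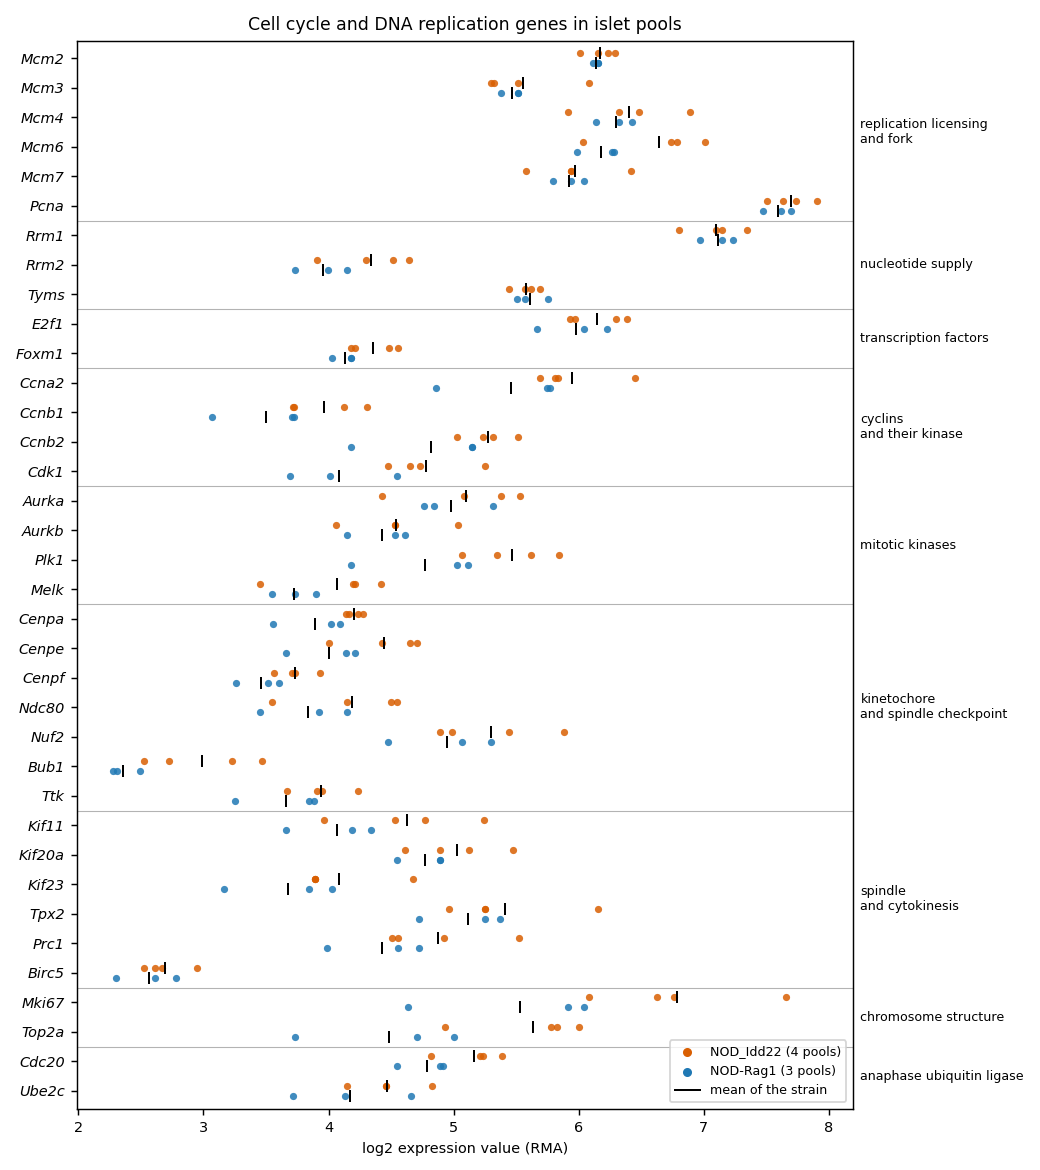
Log2 expression value (x axis) of each of the 36 genes (rows, grouped by role) in the 4 NOD_Idd22 pools (orange, upper) and the 3 NOD-Rag1 pools (blue, lower), with the strain mean as a black bar. The points of the strains overlap for 33 of the 36 genes, and do not for Mki67, Bub1 and Cenpa.

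The limits of this difference lie in single pools. NOD-Rag1 replicate 2 was the lowest of the 7 pools for 22 of the 25 mitosis genes, and without it the mitosis median was 0.17, the replication median 0.11 and that of the 36 genes 0.15. Then 1 gene, Top2a, was past the methods' threshold (2.78%), against 2.93% of probe sets higher and 3.68% in either direction. That count was 2 (5.56%) without NOD_Idd22 replicate 1 and also without NOD_Idd22 replicate 4, against 5.58% and 3.15% of probe sets higher (9.60% and 4.13% in either direction). It was 3 (8.33%) without NOD_Idd22 replicate 2 and also without NOD-Rag1 replicate 1, against 3.24% and 4.63%. Without NOD-Rag1 replicate 3 it was 6 (16.7%), against 2.80%, and without NOD_Idd22 replicate 3 it was 10 (27.8%), against 3.94%. Within the set of arrays that holds NOD_Idd22 replicates 2, 3 and 4 and NOD-Rag1 replicate 1, the median was 0.12 for mitosis genes, 0.10 for replication genes and 0.12 for the 36. Within the set of NOD_Idd22 replicate 1 and NOD-Rag1 replicates 2 and 3 these were 0.80, 0.43 and 0.67. NOD-Rag1 replicate 1, the only NOD-Rag1 pool of the first set, was also the only pool with male-type values. Sex therefore cannot be told apart from strain within that first set, for these medians and for single genes below.

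Of the 9 replication genes, only Mcm6 and Rrm2 had log2 fold changes over 0.11 by the brightest probe set. Mcm6, a subunit of the MCM2-7 ring that unwinds DNA at the fork, had 6.78, 6.74, 6.03 and 7.01 in NOD_Idd22 pools 1 to 4, against 5.99, 6.27 and 6.28 in the NOD-Rag1 pools. Replicates 1, 2 and 4 of NOD_Idd22 stood above all NOD-Rag1 pools, and replicate 3 fell between them. The log2 fold change of 0.46 (SE 0.23) had an adjusted p of 0.574 by limma and an exact permutation p of 0.114. Mcm2, of the same ring, had 6.29, 6.15, 6.01 and 6.24 in NOD_Idd22 and 6.11, 6.15 and 6.15 in NOD-Rag1. Its groups overlapped throughout, with a log2 fold change of 0.03 (95% interval -0.19 to 0.25). A dimmer Mcm2 probe set, described at the end, had 0.55. Pcna, the sliding clamp of the DNA polymerases, had 7.91, 7.63, 7.50 and 7.73 in NOD_Idd22 and 7.47, 7.70 and 7.62 in NOD-Rag1. Its log2 fold change was 0.10 (95% interval -0.18 to 0.38), and only NOD_Idd22 replicates 1 and 4 exceeded the highest NOD-Rag1 pool. The other ring subunits, Mcm3, Mcm4 and Mcm7, had log2 fold changes of 0.08, 0.11 and 0.04.

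Of the enzymes that supply deoxynucleotides, Rrm1, the large subunit of ribonucleotide reductase, had 7.35, 7.10, 6.80 and 7.14 in NOD_Idd22 and 6.97, 7.24 and 7.14 in NOD-Rag1. Both its highest and its lowest pool were NOD_Idd22 pools, and the log2 fold change was -0.02 (95% interval -0.35 to 0.31). Tyms, thymidylate synthase, had 5.44, 5.69, 5.57 and 5.62 in NOD_Idd22 and 5.50, 5.57 and 5.76 in NOD-Rag1, a log2 fold change of -0.03 (95% interval -0.27 to 0.21). It was the single gene of the 36 whose lowest pool was NOD_Idd22 replicate 1. Rrm2, the small reductase subunit whose transcript follows S phase, stood apart from Rrm1 with a log2 fold change of 0.38 (SE 0.19, adjusted p = 0.574 by limma). NOD_Idd22 replicate 3 was the lowest pool for 5 of the 9 replication genes and lay under the NOD-Rag1 mean for all 9.

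The promoters of Mcm6, which had the largest difference among replication genes, and Pcna, which differed little, are shown from RefSeq (GRCm38.p6), from 250 bases before to 50 after the transcript start. Capitals mark matches on either strand to CCAAT, the box bound by NF-Y, and to the E2F-type elements TTCCCGC, TTTCGCGC and TTTGGCGC. The Mcm6 window lies at chr1:128359656-128359955 and that of Pcna at chr2:132253131-132253430, both on the minus strand. The first capital run of Mcm6 holds 2 overlapping E2F-type matches.
Mcm6: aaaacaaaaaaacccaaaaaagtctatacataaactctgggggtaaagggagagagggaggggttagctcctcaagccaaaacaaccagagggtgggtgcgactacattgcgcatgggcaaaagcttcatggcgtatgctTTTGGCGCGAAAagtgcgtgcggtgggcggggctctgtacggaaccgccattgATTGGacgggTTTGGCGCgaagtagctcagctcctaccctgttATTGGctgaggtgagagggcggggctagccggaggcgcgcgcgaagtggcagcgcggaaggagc
Pcna: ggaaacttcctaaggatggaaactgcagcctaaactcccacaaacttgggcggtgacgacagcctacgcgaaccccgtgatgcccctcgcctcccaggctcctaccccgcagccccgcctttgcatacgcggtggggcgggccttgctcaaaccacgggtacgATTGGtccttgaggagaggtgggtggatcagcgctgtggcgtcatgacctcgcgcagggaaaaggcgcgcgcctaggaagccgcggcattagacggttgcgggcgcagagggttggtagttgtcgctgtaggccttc
Mcm6 held 3 E2F-type matches and 2 CCAAT boxes in these 300 bases, and Pcna held 1 CCAAT box. The other replication genes did not repeat this contrast. Rrm2, with a log2 fold change of 0.38, held 0 E2F-type matches. Mcm3 (0.08) held 2, Rrm1 (-0.02) held 1, and the windows of Mcm7 (0.04) held 1 and 2.

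The transcription factors differed little. E2f1, an activator of S phase genes, had 5.97, 5.93, 6.38 and 6.30 in NOD_Idd22 and 6.23, 5.67 and 6.05 in NOD-Rag1, with a log2 fold change of 0.16 (SE 0.18). Its highest pool was NOD_Idd22 replicate 3, which was the lowest pool of its strain for 25 of the 36 genes. Foxm1, an activator of G2 and mitosis genes, had 4.56, 4.18, 4.48 and 4.21 in NOD_Idd22 and 4.18, 4.03 and 4.18 in NOD-Rag1, with a log2 fold change of 0.23 (SE 0.12, adjusted p = 0.584 by limma). The groups of both factors overlapped.

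The chromosome structure genes Mki67 and Top2a had the largest differences of the 36. Mki67, which coats mitotic chromosomes and is the classic marker of cycling cells (chr7:135689788-135716379, GRCm38), had 6.62, 6.76, 6.09 and 7.66 in NOD_Idd22 pools 1 to 4, against 5.91, 4.63 and 6.04 in NOD-Rag1. Every NOD_Idd22 pool exceeded every NOD-Rag1 pool, though replicate 3 did so by a small margin. The means were 6.78 ± 0.65 in NOD_Idd22 and 5.53 ± 0.78 in NOD-Rag1 (SD, n = 4 and 3), a log2 fold change of 1.25 (SE 0.45), or 2.38-fold. The adjusted p was 0.477 by limma and the exact permutation p was 0.0571. Top2a, topoisomerase II alpha, which untangles sister chromatids (chr11:98992943-99024189), had 6.0, 5.78, 4.93 and 5.83 in NOD_Idd22, against 4.71, 3.73 and 5.0 in NOD-Rag1. Only NOD_Idd22 replicate 3 overlapped, lying just under NOD-Rag1 replicate 3. Top2a averaged 5.63 ± 0.48 in NOD_Idd22 and 4.48 ± 0.67 in NOD-Rag1, a log2 fold change of 1.15 (SE 0.36), or 2.22-fold, with an adjusted p of 0.414 by limma and an exact permutation p of 0.0857. Within the sets of arrays, each of which has a single pool of one strain, the differences were 0.92 and 1.29 for Mki67 and 0.80 and 1.63 for Top2a, with the set that holds 3 NOD_Idd22 pools given first.

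Among the cyclins and their kinase, Cdk1, the kinase that starts mitosis (chr10:69336635-69352938), had 5.25, 4.73, 4.48 and 4.66 in NOD_Idd22 and 4.01, 3.69 and 4.55 in NOD-Rag1. NOD_Idd22 replicate 3 was the only pool of its strain under the highest NOD-Rag1 pool. The log2 fold change was 0.70 (SE 0.25, adjusted p = 0.474 by limma), and the values within the array sets were 0.61 and 1.14. Ccna2, cyclin A2 of S phase and G2, had 6.45, 5.83, 5.69 and 5.81 in NOD_Idd22 and 5.74, 4.86 and 5.77 in NOD-Rag1. Ccnb2, a mitotic cyclin B, had 5.51, 5.31, 5.03 and 5.23 in NOD_Idd22 and 5.14, 4.18 and 5.14 in NOD-Rag1. In both cyclins NOD-Rag1 replicate 2 stood far below the other 6 pools, which lay within 0.76 of each other for Ccna2 and 0.48 for Ccnb2. Their log2 fold changes were 0.49 (SE 0.28) and 0.45 (SE 0.25). Within the array set that leaves out NOD-Rag1 replicate 2, they were 0.03 and 0.05. Ccnb1, the main partner of Cdk1, differed by 0.47 (adjusted p = 0.555 by limma).

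Of the mitotic kinases, Plk1, which acts from centrosome maturation to cytokinesis (chr7:122159437-122169875), had 5.84, 5.06, 5.34 and 5.62 in NOD_Idd22 and 5.02, 4.18 and 5.12 in NOD-Rag1. Replicates 1, 3 and 4 of NOD_Idd22 exceeded all NOD-Rag1 pools, and the log2 fold change was 0.69 (SE 0.28, adjusted p = 0.501 by limma). Aurka, the spindle pole kinase, had 5.38, 5.08, 4.42 and 5.53 in NOD_Idd22 and 5.32, 4.85 and 4.76 in NOD-Rag1. It did not follow Plk1: NOD-Rag1 replicate 1 was among its 3 highest pools, and its log2 fold change was 0.13 (SE 0.28), or -0.31 and 0.57 within the array sets. Aurkb, the kinase of the chromosomal passenger complex, and Melk, a kinase abundant in dividing cells, had log2 fold changes of 0.11 and 0.34.

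In the kinetochore and spindle checkpoint group, Bub1, a checkpoint kinase (chr2:127800200-127831865), is given in full because of its values. It had 3.46, 2.72, 2.53 and 3.23 in NOD_Idd22 and 2.31, 2.27 and 2.49 in NOD-Rag1. The pools did not overlap, and the log2 fold change was 0.63 (SE 0.23, adjusted p = 0.483 by limma, exact permutation p = 0.0571). Bub1 was dim, at percentile 27.3 of all probe sets by its mean. Its NOD-Rag1 values lay at or under the lower quartiles of their arrays (2.65, 2.49 and 2.49), so they were near the floor. Cenpa, the histone H3 variant that marks the centromere, was also chosen after its values were seen, and had 4.16, 4.14, 4.23 and 4.28 in NOD_Idd22 and 4.09, 3.55 and 4.02 in NOD-Rag1. Here replicate 3 was not low in NOD_Idd22, and the log2 fold change of 0.32 (SE 0.14) had the smallest possible exact permutation p of 0.0286 and an adjusted p of 0.539 by limma. Cenpe, a kinetochore kinesin, had 4.70, 4.42, 4.0 and 4.65 in NOD_Idd22 and 4.22, 3.66 and 4.14 in NOD-Rag1, a log2 fold change of 0.44 (SE 0.21). Nuf2, of the NDC80 complex that grips microtubules, had 5.88, 4.89, 4.98 and 5.44 in NOD_Idd22 and 5.07, 4.48 and 5.30 in NOD-Rag1, a log2 fold change of 0.35 (SE 0.29). In both genes, NOD_Idd22 replicates 1 and 4 were highest and NOD-Rag1 replicate 2 lowest. Ndc80, Cenpf and Ttk, the last a checkpoint kinase, had log2 fold changes of 0.35, 0.27 and 0.28.

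Of the 6 spindle and cytokinesis genes, NOD_Idd22 replicate 1 was the highest pool for 5 and NOD-Rag1 replicate 2 the lowest for all 6. Tpx2, which activates Aurora A on the spindle, had 6.16, 5.25, 4.96 and 5.25 in NOD_Idd22 and 5.25, 4.72 and 5.37 in NOD-Rag1, a log2 fold change of 0.29 (SE 0.30). Kif20a, a cytokinesis kinesin, had 5.47, 4.89, 4.61 and 5.12 in NOD_Idd22 and 4.89, 4.54 and 4.89 in NOD-Rag1, a log2 fold change of 0.25 (SE 0.21). The pools of the strains overlapped in both genes. Kif11, the motor that separates spindle poles, Prc1, which bundles midzone microtubules, Kif23, a midzone kinesin, and Birc5, survivin, had log2 fold changes of 0.56, 0.45, 0.41 and 0.12. Of the anaphase ubiquitin ligase genes, Cdc20, its activator, had 5.23, 5.21, 4.82 and 5.39 in NOD_Idd22 and 4.89, 4.55 and 4.92 in NOD-Rag1. Replicates 1, 2 and 4 of NOD_Idd22 exceeded all NOD-Rag1 pools, with a log2 fold change of 0.38 (SE 0.16, adjusted p = 0.525 by limma). Ube2c, its ubiquitin-conjugating enzyme, had 4.82, 4.14, 4.46 and 4.46 in NOD_Idd22 and 4.14, 3.72 and 4.66 in NOD-Rag1, and the groups overlapped at a log2 fold change of 0.30 (SE 0.24).

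The promoters of the 5 genes past the methods' threshold are shown in the same way, with capitals at matches to CCAAT, to the E2F-type elements and to TTTGAA or TTCGAA, the cell cycle homology region (CHR) bound by the MuvB complex. The RefSeq windows (GRCm38.p6) are chr7:135716330-135716629, chr11:99024140-99024439, chr10:69352863-69353162 and chr2:127831810-127832109 on the minus strand and chr7:122159185-122159484 on the plus strand.
Mki67: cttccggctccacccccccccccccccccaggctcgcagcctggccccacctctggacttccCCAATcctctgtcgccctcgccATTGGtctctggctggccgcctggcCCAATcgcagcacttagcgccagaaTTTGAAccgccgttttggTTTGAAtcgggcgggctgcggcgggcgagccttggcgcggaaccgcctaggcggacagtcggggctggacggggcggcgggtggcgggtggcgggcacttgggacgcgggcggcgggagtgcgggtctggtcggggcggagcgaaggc
Top2a: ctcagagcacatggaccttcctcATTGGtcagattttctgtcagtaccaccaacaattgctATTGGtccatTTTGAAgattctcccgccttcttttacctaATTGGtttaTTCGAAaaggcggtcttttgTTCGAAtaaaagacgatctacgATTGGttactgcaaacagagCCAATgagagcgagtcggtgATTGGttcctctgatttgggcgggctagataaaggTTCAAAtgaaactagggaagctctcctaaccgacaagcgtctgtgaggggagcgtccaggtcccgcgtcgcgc
Cdk1: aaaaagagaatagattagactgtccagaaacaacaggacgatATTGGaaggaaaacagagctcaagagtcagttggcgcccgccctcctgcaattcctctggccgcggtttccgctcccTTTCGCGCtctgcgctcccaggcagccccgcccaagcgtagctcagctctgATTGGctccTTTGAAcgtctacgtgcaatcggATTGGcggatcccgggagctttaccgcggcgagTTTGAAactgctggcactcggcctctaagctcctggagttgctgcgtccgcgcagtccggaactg
Plk1: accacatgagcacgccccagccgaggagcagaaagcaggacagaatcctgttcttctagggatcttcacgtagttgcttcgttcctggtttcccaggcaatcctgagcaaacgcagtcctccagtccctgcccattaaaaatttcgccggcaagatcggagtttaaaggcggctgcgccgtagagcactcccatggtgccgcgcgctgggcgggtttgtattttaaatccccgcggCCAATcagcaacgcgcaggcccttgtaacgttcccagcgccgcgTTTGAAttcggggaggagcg
Bub1: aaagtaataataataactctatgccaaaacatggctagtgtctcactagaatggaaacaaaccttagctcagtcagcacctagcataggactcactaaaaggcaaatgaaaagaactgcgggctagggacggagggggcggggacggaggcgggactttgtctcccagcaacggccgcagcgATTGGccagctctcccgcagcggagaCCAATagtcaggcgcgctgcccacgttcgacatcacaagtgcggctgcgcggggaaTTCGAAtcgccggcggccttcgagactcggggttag
Each of the 5 held at least 1 CCAAT box and at least 1 CHR. Top2a held 6 CCAAT boxes and 4 CHR matches, and Cdk1 also held an E2F-type match.

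RefSeq windows were at hand for 30 of the 36 genes, with 32 windows because Mcm7 and Prc1 have 2 each, and Foxm1, Ccna2, Aurkb, Tpx2, Kif20a and Mcm4 were not matched. A CCAAT box stood in 81.2% of these windows, against 37.4% of all 32851 windows of the same length. The CHR stood in 17 of 22 mitosis windows (77.3%) and 2 of 9 replication windows (22.2%), against 19.2% of all. E2F-type elements ran the other way, in 1 of 22 mitosis windows (4.55%) and 5 of 9 replication windows (55.6%), against 5.33% of all. Both a CCAAT box and a CHR stood in 72.7% of mitosis windows and 7.52% of all windows. These are matches of letters only, and their part in the differences between pools was not tested.

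**Figure D2:**
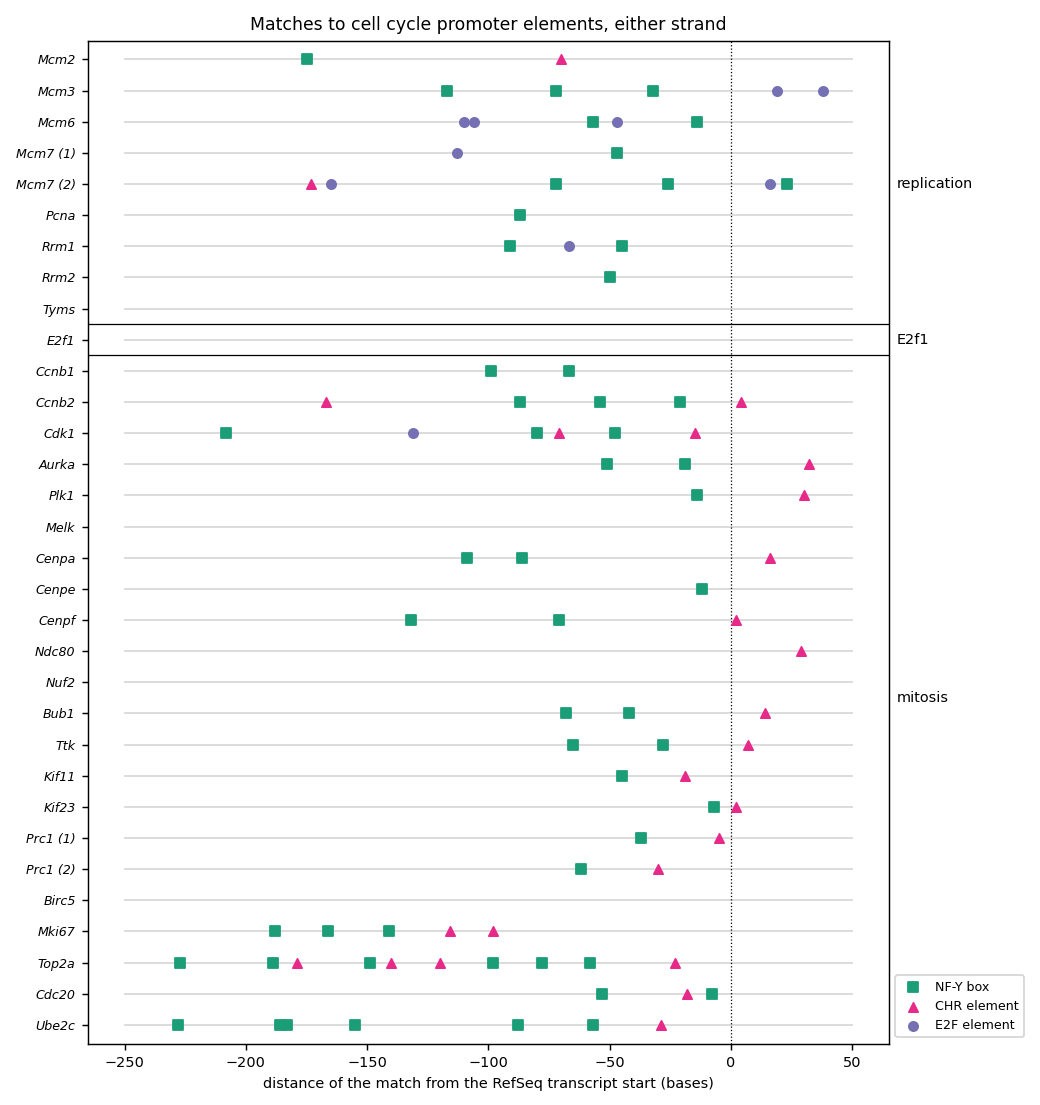
Position of each match, in bases from the RefSeq transcript start (x axis), in 32 promoter windows (rows) of 30 genes, for the NF-Y box, the CHR and E2F-type elements on either strand. CHR matches (triangles) lie mostly in the mitosis rows near the start, and E2F-type matches (circles) mostly in the replication rows.

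Pool by pool, the mitosis genes followed much the same order. NOD_Idd22 replicate 1 was the highest of the 7 pools for 26 of the 36 genes, though it was the highest for only 8.88% of all probe sets. NOD_Idd22 replicate 4 was highest for 8 more (22.2%), close to its share of 19.5% of all probe sets. NOD-Rag1 replicate 2 was the lowest for 25 of the 36, against 18.2% of all probe sets. The mean level of the 25 mitosis genes was 5.01, 4.56, 4.32 and 4.79 in NOD_Idd22 pools 1 to 4 and 4.37, 3.82 and 4.47 in NOD-Rag1 pools 1 to 3. In words, replicates 1, 4 and 2 of NOD_Idd22 stood above all NOD-Rag1 pools, and replicate 3 stood under NOD-Rag1 replicates 1 and 3. For the 9 replication genes the mean was 6.42, 6.13, 5.85 and 6.24 in NOD_Idd22 and 5.93, 6.07 and 6.10 in NOD-Rag1, so that NOD_Idd22 replicate 3 was the lowest pool of all and NOD-Rag1 replicate 2 was not low. Against the NOD-Rag1 mean of each gene, 34, 31, 18 and 36 of the 36 genes were above it in NOD_Idd22 replicates 1 to 4.

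**Figure D3:**
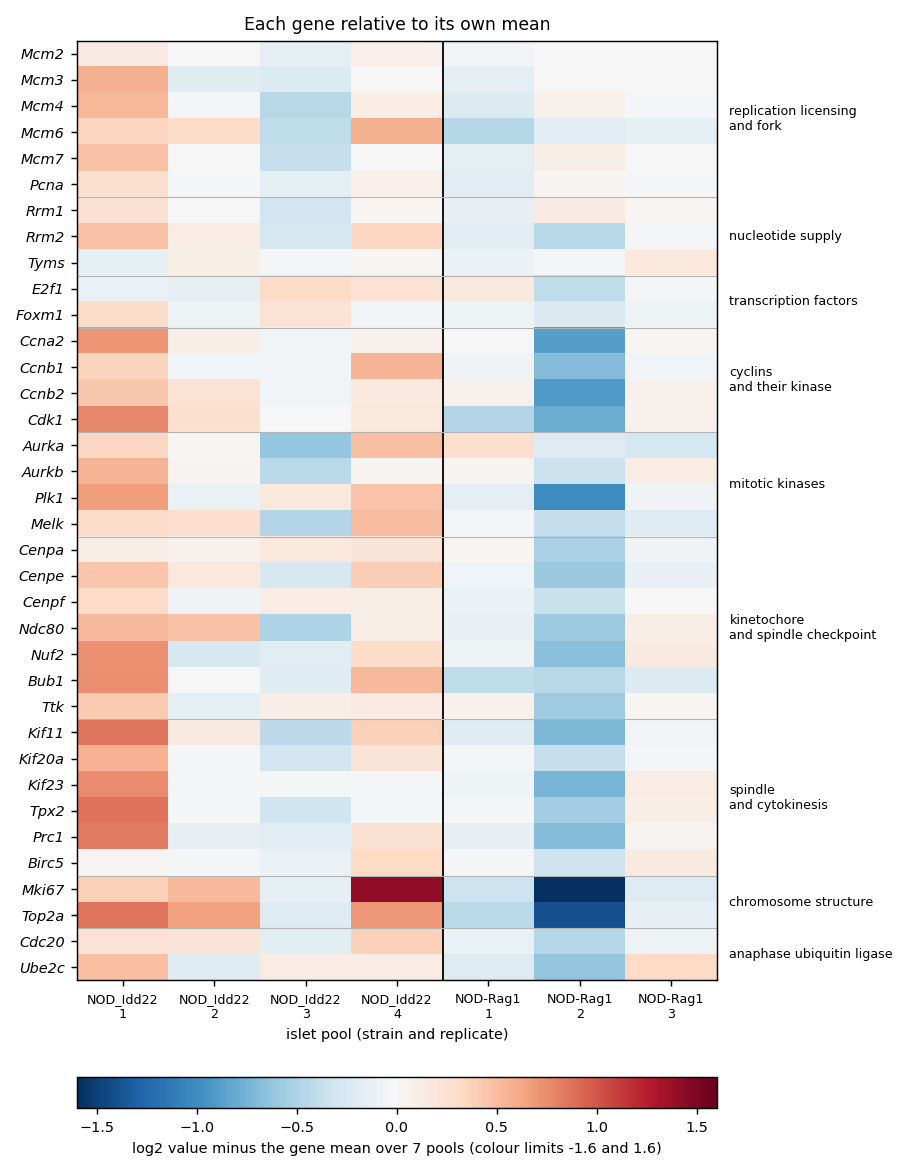
Each gene (row) in each pool (column, NOD_Idd22 left of the line and NOD-Rag1 right of it) as its log2 value minus its own mean over the 7 pools, red above and blue below. NOD_Idd22 replicate 1 is the reddest column and NOD-Rag1 replicate 2 the bluest, though not in most replication rows.

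Lymphocyte genes separated the strains more widely, in an order of pools that matched that of the mitosis genes only in part. NOD-Rag1 replicate 2 was the lowest pool of all in the mitosis, T cell and B cell lists. In each of these lists NOD_Idd22 replicate 3 was the lowest pool of its strain. For 25 T cell genes the mean level was 6.20, 6.28, 5.21 and 6.16 in NOD_Idd22 pools 1 to 4 and 4.50, 4.16 and 4.27 in NOD-Rag1. For 17 of 19 B cell genes measured it was 5.37, 6.25, 5.06 and 6.29 in NOD_Idd22 and 3.91, 3.67 and 3.75 in NOD-Rag1. All NOD_Idd22 pools lay above all NOD-Rag1 pools in both lists, including replicate 3, whose mitosis level did not. The lists had median log2 fold changes of 1.46 for T cells, with 22 of 25 higher at the methods' threshold, and 1.37 for B cells, with 16 of 17. Over all probe sets, 3.81% were higher at that threshold. By an adjusted p under 0.05 in limma, 1 gene of the T cell list and 2 of the B cell list passed. The share of all probe sets higher by that measure was 0.146%. Trbc2 of the T cell receptor had 8.55, 9.29, 8.23 and 9.07 in NOD_Idd22 and 7.54, 6.38 and 6.49 in NOD-Rag1. Igkc had 11.92, 11.85, 10.71 and 11.92 in NOD_Idd22 and 3.45, 3.99 and 3.91 in NOD-Rag1. Cytotoxic and NK cell genes, 11 in all, had a median of 0.50, and the difference of Nkg7, a granule protein, was 1.55 on the log2 scale (adjusted p = 0.103 by limma). The 10 germinal centre and plasma cell genes measured had a median of 0.21, with 7 positive and 3 negative, 3 higher at the methods' threshold and 1 past an adjusted p of 0.05. That gene was Igj, the joining chain of antibodies, named for its value, at 7.23, 7.74, 5.90 and 8.12 in NOD_Idd22 islets and 2.33, 1.95 and 1.76 in NOD-Rag1 islets (log2 fold change 5.23, SE 0.50, adjusted p = 0.0184 by limma). Xbp1, a secretory regulator that endocrine cells also use, had -0.10. The orders differed among NOD_Idd22 replicates 1, 2 and 4. Replicate 2 had the highest T cell level, 6.28 against 6.20 and 6.16, but a mitosis level under those of replicates 1 and 4. Replicate 1, with the highest mitosis level, had a B cell level under those of replicates 2 and 4.

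Other cell types differed between pools too. The counts of higher genes below stand against 3.81% of all probe sets higher at the methods' threshold. Macrophage and dendritic cell genes (17 of 18 measured, 11 higher at the methods' threshold) averaged 6.72, 6.26, 5.42 and 6.15 in NOD_Idd22 and 5.14, 4.90 and 5.46 in NOD-Rag1. Fibroblast and stellate cell genes (12 measured, 4 higher) averaged 7.53, 6.98, 6.49 and 6.95 in NOD_Idd22 and 6.62, 5.62 and 6.61 in NOD-Rag1. Like the mitosis genes, the macrophage list and the fibroblast list were highest in NOD_Idd22 replicate 1 and lowest in NOD-Rag1 replicate 2. In the fibroblast list NOD_Idd22 replicate 3 lay under NOD-Rag1 replicates 1 and 3. In the macrophage list it lay just under NOD-Rag1 replicate 3 (5.42 against 5.46). Endothelial genes (14 measured, 12 higher) averaged 6.27 to 6.86 in NOD_Idd22 and 5.05 to 5.89 in NOD-Rag1, and their lowest NOD_Idd22 pool was replicate 1. Acinar genes (17 of 18 measured, 14 higher) averaged 7.77 to 9.82 in NOD_Idd22 and 4.72 to 7.31 in NOD-Rag1. Beta cell genes (16 measured, 0 past the threshold) averaged 9.17 to 10.02 in NOD_Idd22 and 9.40 to 9.75 in NOD-Rag1, lowest in NOD_Idd22 replicate 1. The part of each cell type in the cell cycle differences was not tested.

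**Figure D4:**
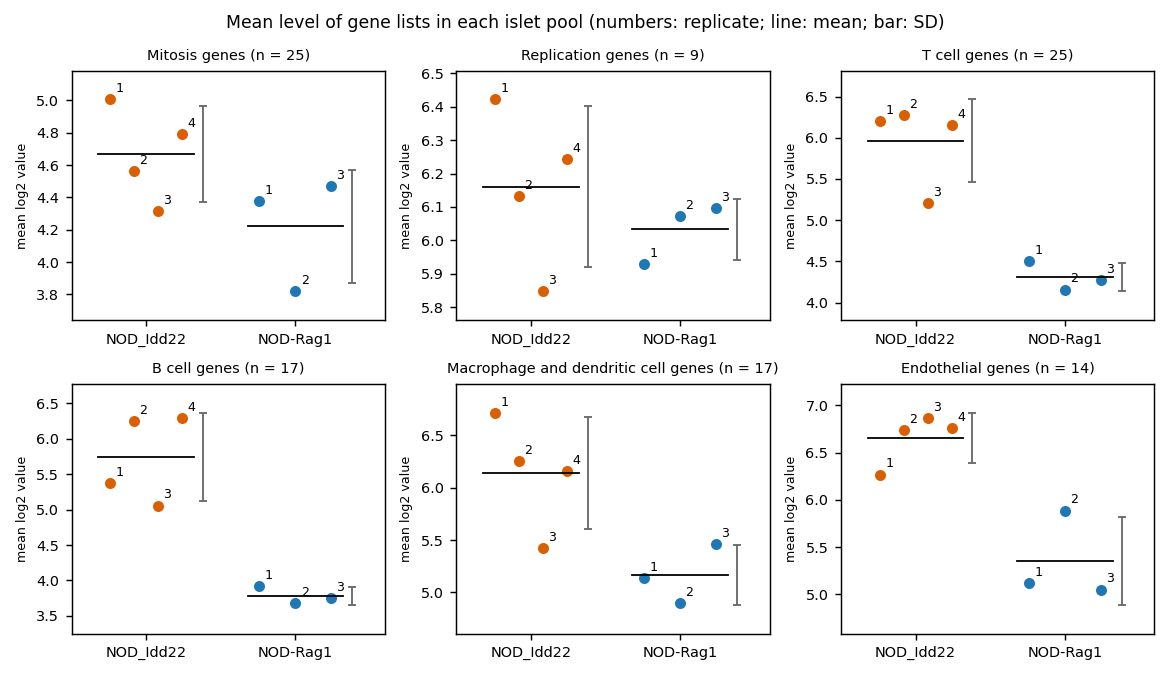
Mean log2 value (y axis, a separate scale in each panel) of the mitosis genes, the replication genes and 4 lists of cell type genes in each pool, NOD_Idd22 in orange on the left and NOD-Rag1 in blue on the right, numbered by replicate, with the strain mean (line) and SD (bar). NOD_Idd22 replicate 3 lies among the NOD-Rag1 pools for mitosis genes (4.32) and above all of them for T cell genes (5.21) and B cell genes (5.06).

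Beyond the 36, 167 of 171 listed genes of the same pathways were measured. Of these, 6 were higher (3.59%) and 2 lower (1.20%) at the methods' threshold, close to the shares of all probe sets given above. None passed an adjusted p of 0.05 by limma, and the median log2 fold change was 0.03. The 8 genes named next are the ones past that threshold. The 59 measured genes of the kinetochore, condensin, spindle and cytokinesis had a median of 0.20, with 45 positive. The 20 of mitotic entry and checkpoint had 0.03, with 11 positive and 9 negative. Of all 34351 probe sets, 18896 were positive. In the first list Kif2c, a kinesin that dismantles microtubules, had 4.63, 4.48, 4.10 and 4.66 in NOD_Idd22 and 3.60, 3.33 and 3.82 in NOD-Rag1. The pools did not overlap, and its log2 fold change of 0.88 (SE 0.17) had an adjusted p of 0.162 by limma, lower than that of any of the 36 genes. Casc5, a kinetochore scaffold, had a log2 fold change of 0.87 (SE 0.22), also without overlap, and Ckap2l, a spindle protein, had 0.64 (SE 0.21).

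The licensing, fork and nucleotide lists, with 20, 26 and 5 genes, had medians of 0.01, 0.02 and -0.07. Mcm5, the MCM ring subunit not in the set, lies on chromosome 8 (chr8:75109528-75128439), inside the ALR segment by the study's marker positions, which are on another build, whereas 0 of the 36 genes are on that chromosome. It had 6.04, 5.71, 5.42 and 5.91 in NOD_Idd22 and 4.71, 5.39 and 5.05 in NOD-Rag1. The pools did not overlap, and its log2 fold change was 0.72 (SE 0.20, adjusted p = 0.346 by limma). The part of the segment in this difference was not tested. Bub1, Pcna, Tpx2, E2f1, Ube2c and Aurka of the set lie on chromosome 2, as does Rag1. Any part of donor DNA near Rag1 in their differences was not tested. Rfc4, a subunit of the clamp loader for Pcna, had a log2 fold change of -0.56 (SE 0.19). Of G1 regulators, Cdk6, a cyclin D kinase, had 0.61 (SE 0.26), and E2f2, an E2F activator, had 0.54 (SE 0.19). Cdkn1a, the CDK inhibitor p21, had 8.74, 7.22, 7.53 and 7.85 in NOD_Idd22 and 8.64, 8.93 and 8.66 in NOD-Rag1, a log2 fold change of -0.91 (SE 0.34, adjusted p = 0.485 by limma). NOD_Idd22 replicate 1, the pool with the highest mitosis level, was the only one of its strain with Cdkn1a in the NOD-Rag1 range. The 11 CDK inhibitors and pocket proteins and the 14 E2F and MuvB factors had medians of -0.02 and -0.17.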

How the data were processed

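Islet RNA of 4 NOD_Idd22 and 3 NOD-Rag1 pools was hybridised to Affymetrix Mouse Gene 2.0 ST arrays. The deposited values are log2 expression values that the authors made with RMA (version not given in the sources used here). RMA usually means background correction, quantile normalization and probe summary. The lower quartiles of the arrays still ran from 2.49 to 2.68, and whether all arrays were normalized together is not known here. The deposited comparison table holds the authors' log2 fold changes and the authors' p-values, plain and adjusted, which were not used. Only its symbols and GRCm38 coordinates were read. The tests ran on the 34351 annotated probe sets of 34472 (121 carry no annotation), dim ones included, and depth does not apply: the number of arrays limits the precision.

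The strain difference was fitted without a block by the lmFit and eBayes functions of limma 3.58.1 (R 4.3.3), with Benjamini-Hochberg adjustment over all 34351 probe sets, and single genes by an exact two-sided permutation over 35 assignments of the pools. The labels do not say that the animals of different pools were unrelated, so p-values measure only the spread between these pools. The brightest probe set by mean over all pools stood for a gene with several. The limma step was tested on simulated data.

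The 36 genes and all other lists were chosen with earlier results of these data known. Pool values are given for the 2 brightest genes of each role, the 3 highest and 3 lowest log2 fold changes, and genes past an adjusted p of 0.05 (0 genes). Of the other pathway lists, genes past the methods' threshold are named, up to 4 a list, and of the lymphocyte lists the brightest gene. Thy1 is in both the T cell and the fibroblast list. Alternatives were quantile normalization, median centring, brighter probe sets, the unpaired test that the study names in its figure legends (called the methods' t-test), a trend and robust fit, a replicate block, the array set as a block, leaving out each pool, the mean of probe sets and other thresholds. Replicate numbers did not pair the pools. Promoters came from RefSeq (GRCm38.p6), 250 bases before to 50 after each start.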

Additional observations from a re-analysis of the deposited data

Results flagged for a closer look

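Kif23, a midzone kinesin, stood at 4.67 in NOD_Idd22 replicate 1, while the other 3 NOD_Idd22 pools all held the same value, 3.89, so the pool lay apart from its strain. With 3 equal values, any other value in the remaining pool stands apart by this measure. By the same measure 1 of the 36 genes (2.78%) and 5714 of 34351 probe sets (16.6%) had a pool apart from the other NOD_Idd22 pools. The usual chance rate of about 1 in 20 holds for values without repeats, so it does not apply here. Values repeated between pools were common, in 17 of the 36 genes (47.2%) and 52.5% of all probe sets.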

How the results depend on the processing

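By limma, the count of 0 genes at an adjusted p under 0.05 (5 at an unadjusted p under 0.05, and 1 by the methods' t-test) held under every alternative run, and also at an adjusted p of 0.1. The count at the methods' threshold, 5 of 36 (13.9%, against 3.81% of all probe sets higher), was 3 (8.33%, against 3.37%) after quantile normalization, 2 (5.56%, against 3.00%, and 6.74% in either direction) after median centring, 1 (2.78%, against 2.74%, and 3.64% in either direction) by the methods' t-test, 3 (8.33%, against 3.70%) with the array set as a block and 2 (5.56%, against 1.83%) at an absolute log2 fold change over 1. It ran from 1 to 10 when single pools were left out. Among brighter probe sets only, which leave out Bub1, it was 4 of 29 (13.8%, against 5.71%, and 9.05% in either direction). Of all probe sets past the threshold, 68.2% were higher, and 44.5% after median centring. The median log2 fold change of the 36 was 0.20 after quantile normalization and 0.21 after median centring, which moved the median of all probe sets to -0.10. With the replicate block, whose fit takes nothing from the unpaired NOD_Idd22 replicate 4, the count was 1 (Plk1, 2.78%, against 2.73%, and 3.34% in either direction) and the median 0.30. Deviations of same-numbered pools from their strain means correlated at -0.38, -0.14 and -0.11, so the numbers did not pair the pools.

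Some signs turned. After median centring the replication median was -0.035, Mcm2 -0.089, Mcm3 -0.035, Mcm4 -0.014, Mcm7 -0.079, Pcna -0.023 and Aurkb -0.0080. After quantile normalization Aurkb was -0.036 and Rrm1 0.031, with the array set as a block Rrm1 was 0.097, and with the replicate block Aurka was -0.015. When single pools were left out, the replication median ran from -0.0078 to 0.17, Mcm2 from -0.0078 to 0.085, Mcm3 from -0.091 to 0.17, Mcm4 from -0.056 to 0.27, Mcm7 from -0.11 to 0.17, Rrm1 from -0.10 to 0.080, Tyms from -0.083 to 0.044, Aurka from -0.015 to 0.35, Aurkb from -0.053 to 0.27 and Birc5 from -0.0074 to 0.23. The causes were not tested. The 7 arrays limit what can be shown.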

Other observations

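Mcm2 and Rrm2 are the 2 genes of the set with further probe sets. For Mcm2 a second probe set had 4.52, 4.48, 4.48 and 4.45 in NOD_Idd22 and 4.44, 3.46 and 3.90 in NOD-Rag1. Its log2 fold change was 0.55 (SE 0.21, adjusted p = 0.491 by limma), against 0.03 for the one used above. At an unadjusted p of 0.0343 by limma, this dimmer probe set was past the methods' threshold. The other 2 Mcm2 probe sets held the same values as each other, with a log2 fold change of 0.11. The second Rrm2 probe set had a mean of 1.92 over the 7 pools and a log2 fold change of 0.08.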
